A study of Mus musculus with 6 samples.

Results

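The genes described here are 50 genes of DNA replication and nucleotide synthesis, chosen by symbol from the 23366 genes of the count tables, in the small intestine epithelium of mouse embryos at E13.5 with and without *Tcf7l1*, a TCF/LEF transcription factor of the WNT pathway. All 50 were found and all 50 passed the filter on low counts, so each was tested. RNA-sequencing counts came from 3 libraries of mutant embryos (Shh-cre-egfp:Tcf7l1 lox/lox) and 3 of wild type embryos, untreated and of the same age, with 500 sorted EpCAM-positive cells and 15 PCR cycles per library. In the mutants Cre is made from the *Shh* locus and so acts in gut epithelium, where it removes a floxed exon of *Tcf7l1*. No library carries Cre without the floxed alleles, so an effect of the *Shh*-Cre allele cannot be told apart from that of *Tcf7l1*. The number of embryos per library, their litters and their sex were not given in the sources used here, and p-values measure only the spread between these libraries.

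Replication begins at origins bound by the origin recognition complex (ORC). With CDC6 and CDT1, ORC loads the ring of MCM2 to MCM7 in G1 phase, and geminin (GMNN) blocks CDT1 afterwards so that origins are not loaded again. In S phase CDC45 and the GINS complex join the MCM ring to form the active helicase. Primase and DNA polymerase alpha then lay down primers, polymerase epsilon extends the leading strand and polymerase delta the lagging strand, both held to DNA by the PCNA clamp, which the RFC complex loads. RPA covers single-stranded DNA, and FEN1 and LIG1 finish Okazaki fragments. Ribonucleotide reductase (RRM1, RRM2), thymidylate synthase (TYMS), thymidine kinase (TK1) and dUTPase (DUT) supply deoxynucleotides, while UNG removes uracil from DNA. Many of these genes are known targets of E2F factors. At this age the gut epithelium is a dividing epithelium.

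Total counts were 18216537 to 20397278 per library. The labels were checked on *Tcf7l1*, whose normalized count was 476, 474 and 364 in the wild type libraries and 41.4, 33.0 and 73.0 in the mutant ones (always given in the order of replicates 1, 2 and 3). *Shh*, whose locus carries Cre in the mutants, was at 412, 543 and 489 in wild type and 185, 224 and 184 in mutant libraries (edgeR adjusted p = 6.1e-05). *Xist* was at 0 in each wild type library and at 229 to 424 counts in the mutants, whereas the Y-linked *Ddx3y* had 1837 to 2254 counts in wild type and 0 in the mutants, so sex and genotype cannot be told apart. *Epcam* had 51446 to 60192 counts, and the defining endothelial genes *Cdh5* and *Kdr* and the blood gene *Ptprc* were at 0 in all libraries. Summed over 12 gut epithelium markers the level was 10317 to 10529 CPM in wild type and 9304 to 9448 in mutant, and over 20 enterocyte markers 1671 to 1716 and 1875 to 1970. For markers of other cells the ranges were 13.9 to 26.7 and 12.3 to 42.7 CPM for mesenchyme (16 genes, *Foxl1* at 0), 3.62 to 6.62 and 3.18 to 5.79 for blood (14 genes, 6 at 0), 22.8 to 29.7 and 19.5 to 28.8 for neural crest and neurons (11 genes, 1 at 0), 0.703 to 1.57 and 0.714 to 1.84 for endothelium (8 genes, 4 at 0), 133 to 142 and 23.5 to 32.5 for gastric epithelium (15 genes, *Muc6* at 0), and 227 to 266 and 161 to 181 for pancreas and liver (12 genes, 6 at 0). The part of these differences in the results below was not tested. The counts come from bulk samples, in which fewer cells of a kind and less RNA per cell cannot be told apart.

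Because the question for this set is whether its genes move together, their promoters are shown first. RefSeq promoters (build GRCm38.p6), which run from 250 bases before to 50 bases after the start of the gene, were at hand for 42 of the 50 genes. The promoters below belong to the 3 genes that changed most clearly by the criteria given further on, written 5′ to 3′ on the strand of the gene. Capitals mark matches to the E2F motif, the cell cycle homology region (CHR) or the CCAAT box.
Tk1, chr11:117825965-117826264, minus strand: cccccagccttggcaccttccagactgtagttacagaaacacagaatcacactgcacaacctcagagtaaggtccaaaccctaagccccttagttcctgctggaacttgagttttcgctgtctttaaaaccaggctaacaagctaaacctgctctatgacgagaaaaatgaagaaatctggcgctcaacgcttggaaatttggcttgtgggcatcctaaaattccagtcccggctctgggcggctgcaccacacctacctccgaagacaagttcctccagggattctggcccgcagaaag
Pold1, chr7:44548766-44549065, minus strand: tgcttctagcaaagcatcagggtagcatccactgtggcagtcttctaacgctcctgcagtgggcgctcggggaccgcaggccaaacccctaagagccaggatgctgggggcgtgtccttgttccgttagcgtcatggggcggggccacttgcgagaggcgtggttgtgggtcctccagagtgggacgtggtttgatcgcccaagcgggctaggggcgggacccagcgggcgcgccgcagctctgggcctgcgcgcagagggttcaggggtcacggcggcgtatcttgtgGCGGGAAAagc
Mcm2, chr6:88898731-88899030, minus strand: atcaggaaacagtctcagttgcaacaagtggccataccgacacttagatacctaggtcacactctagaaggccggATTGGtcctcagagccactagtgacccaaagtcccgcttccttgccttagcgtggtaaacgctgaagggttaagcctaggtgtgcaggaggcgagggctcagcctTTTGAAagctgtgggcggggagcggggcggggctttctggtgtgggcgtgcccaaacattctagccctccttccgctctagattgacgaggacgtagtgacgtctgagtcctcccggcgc

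In these windows *Pold1* held an E2F match on the strand opposite to the gene, from position 39 after the start. *Mcm2* held a CHR match at position -70 and a CCAAT box on the opposite strand at position -175, and *Tk1* held no match to the letters searched. The E2F motif was searched as TTTCCCGC, TTTCGCGC, TTTGCCGC and TTTGGCGC, the CHR as TTTGAA and TTCGAA and the CCAAT box as CCAAT, on both strands. Several of the E2F words can overlap on opposite strands. E2F letters occurred in 16 of 42 promoters (38.1%), in 4.79% of the 9341 promoters of tested genes and in 2.60% of all 27025 promoters. CHR letters occurred in 7 (16.7%), against 16.2% of tested genes and 21.7% of all, and CCAAT in 24 (57.1%), against 43.5% and 41.1%. In the promoters of 38 mitotic genes the shares were 13.2% for E2F, 78.9% for CHR and 73.7% for CCAAT.

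Among the MCM genes, those for MCM3, MCM5, MCM6 and MCM7 held E2F letters, and a window around the first match of each promoter is printed because these genes encode subunits of the same ring. *Mcm2* held no E2F letters, and *Mcm4* had no promoter at hand and was not searched. Capitals in these windows mark E2F letters alone. This set was chosen after the values were seen.
Mcm3, chr1:20820267-20820309, minus strand: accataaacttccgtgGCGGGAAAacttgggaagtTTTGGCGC
Mcm5, chr8:75109340-75109379, plus strand: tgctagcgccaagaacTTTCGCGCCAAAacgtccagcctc
Mcm6, chr1:128359792-128359831, minus strand: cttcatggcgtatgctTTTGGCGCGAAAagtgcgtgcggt
Mcm7, chr5:138172025-138172064, minus strand: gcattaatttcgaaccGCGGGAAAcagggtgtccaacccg

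Over the whole promoter there were 2 E2F matches in *Mcm3*, *Mcm5* and *Mcm7* and 3 in *Mcm6*. Of the genes described below, E2F letters were in the promoters of 4 of the 5 that fell (*Pold1*, *Pold3*, *Mcm3* and *Mcm5*), in 0 of the 4 that rose and have a promoter in the table (*Tk1*, *Orc4*, *Pcna* and *Rfc5*), and in 12 of the 33 that did not pass the test. These counts were made after the values were seen and are given as a description, with no test.

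In the comparison of mutant with wild type, *Tk1*, *Gmnn*, *Orc4*, *Pcna* and *Rfc5* rose and *Pold1*, *Mcm2*, *Pold3*, *Mcm5* and *Mcm3* fell. A gene is said to have risen or fallen when the quasi-likelihood test of edgeR gave a p under 0.01 after Benjamini-Hochberg adjustment over 12501 genes. Values are TMM-normalized counts, and a log2 fold change is that of mutant over wild type. Thus 5 of 50 genes rose and 5 fell, where 7.32% of all tested genes rose and 7.61% fell, and in either direction 10 of 50 passed against 14.9% of all genes. A call also asked for an absolute log2 fold change of 0.5 or more and 50 or more normalized counts on average. By these criteria *Tk1* was called higher and *Pold1* and *Mcm2* lower, against 2.78% and 5.83% of all genes. The other 40 genes did not pass. The log2 fold changes ran from -0.80 to 0.58 with a median of 0.11, against a median of -0.04 over all tested genes, and 31 were above 0 and 19 below it, where 45.7% of all genes were above. The libraries of the groups did not overlap for 16 genes that were higher and 8 that were lower, against 20.8% and 22.2% of all genes, or 24 of 50 (48.0%) against 43.0%.

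The number of genes that passed changed when a library was left out, which also leaves the test fewer libraries. Without wild type 3, 15 rose and 5 fell, and the median log2 fold change was 0.18. The count that rose was 1 without mutant 1, mutant 2, wild type 1 or wild type 2 and 2 without mutant 3. The count that fell was 3 without mutant 1 or mutant 3, 2 without mutant 2 or wild type 2 and 1 without wild type 1. With the fuller criteria the calls were 4 higher without wild type 3, 2 higher without mutant 3, 3 lower without mutant 1, 1 lower without mutant 2 and 0 lower without wild type 1. Calls over all tested genes moved as well, from 348 higher and 729 lower to 516 and 867 without wild type 3. Without any other library they were 260 to 310 higher and 405 to 545 lower. When library size was the only scaling, the median of all genes moved by -0.11 and the split was 1 that rose and 7 that fell, and 0 called higher and 4 called lower. *Tk1* and *Pold3* passed in each of 13 alternative analyses.

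**Figure D1:**
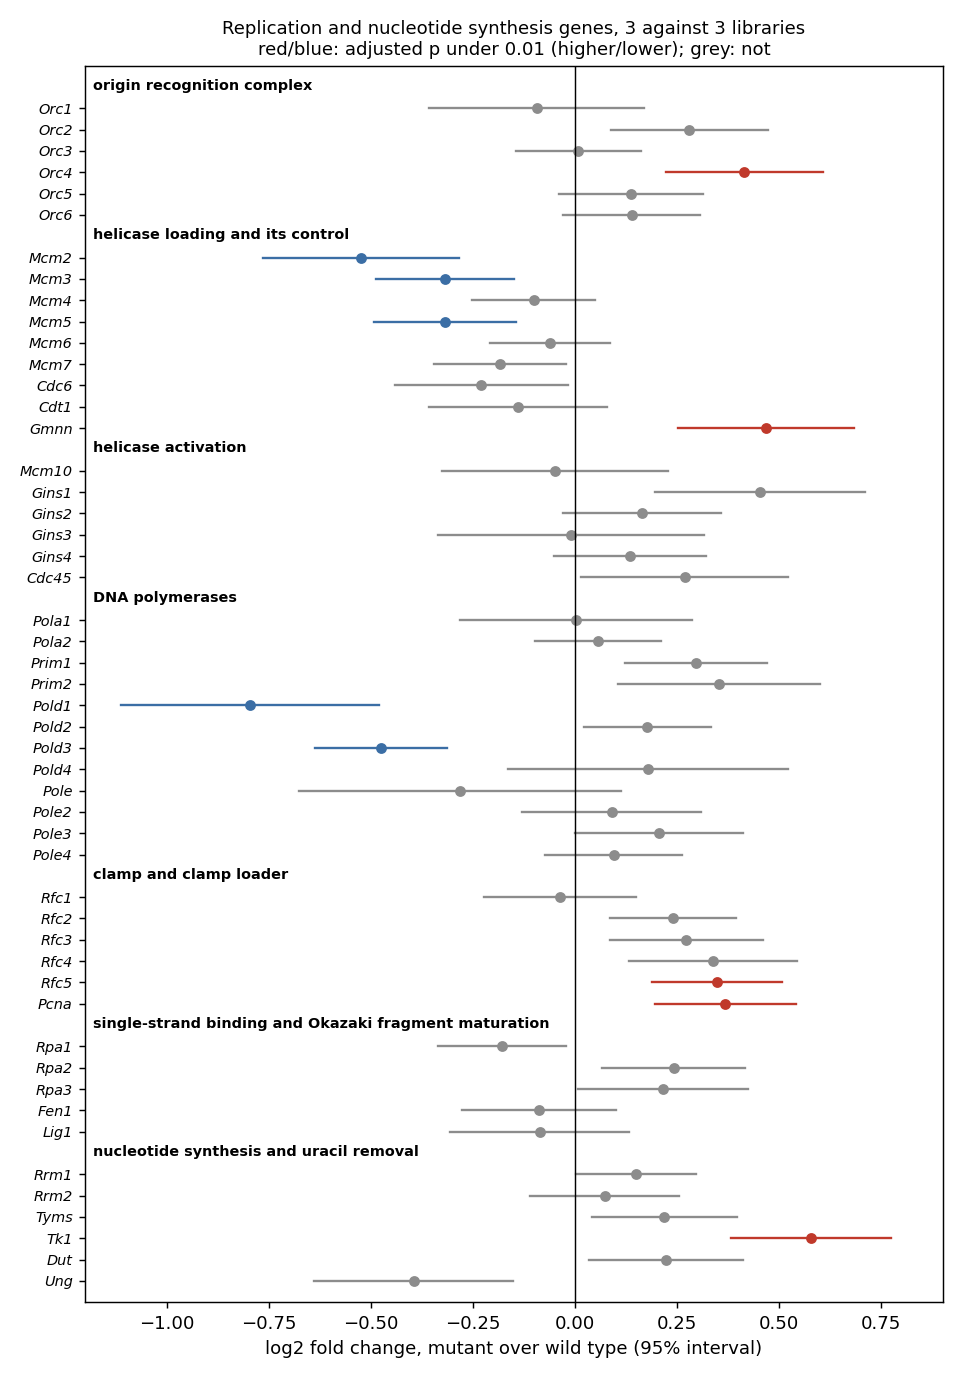
Log2 fold change of mutant over wild type (x axis) for each of the 50 genes (y axis), grouped by role, with points for the estimate and bars for its 95% interval, in red or blue where the adjusted p was under 0.01 and in grey otherwise. All MCM2 to MCM7 genes lie left of 0 (*Mcm6* turns to 0.03 after a correction for gene length) and *Rfc2* to *Rfc5* and *Pcna* lie right of it, and the widest move is that of *Pold1* at -0.80.

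**Figure D2:**
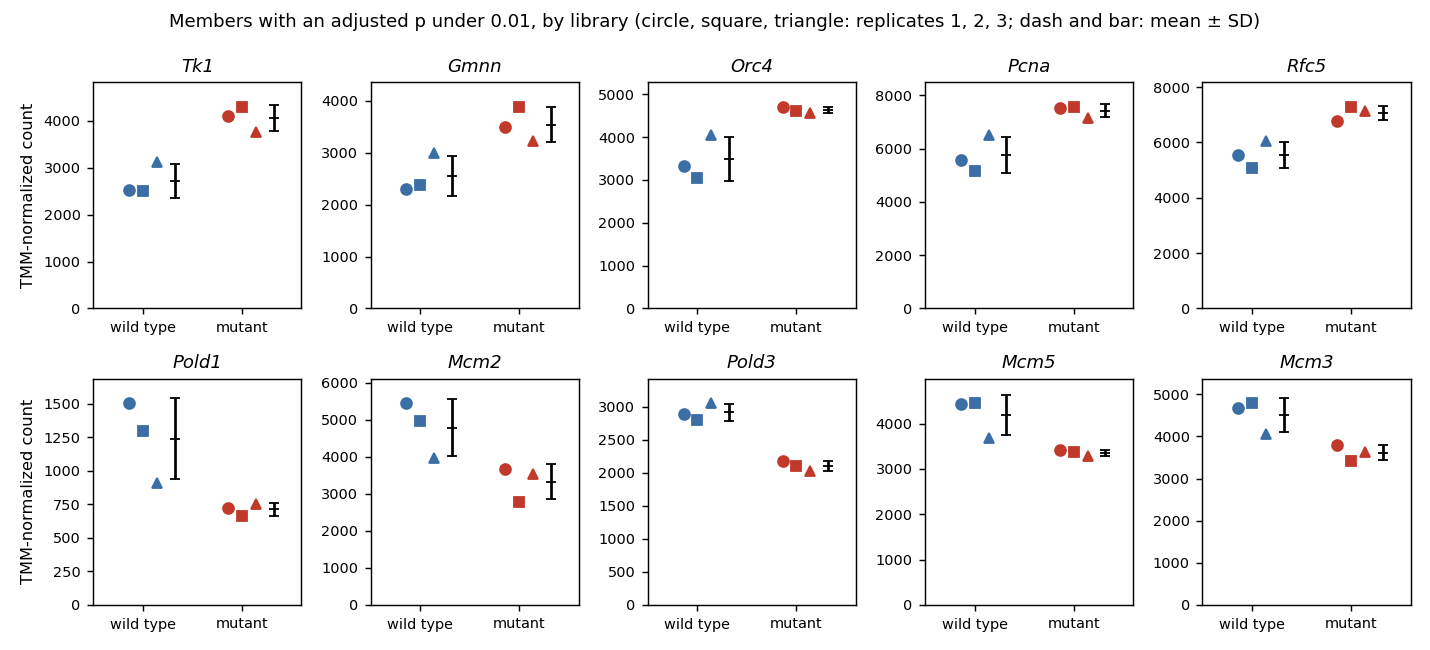
TMM-normalized counts (y axis, from 0) of the 10 genes with an adjusted p under 0.01 in each library, with circles, squares and triangles for replicates 1, 2 and 3 and bars for the mean ± SD of each group. In none of the 10 panels do the groups overlap, which choosing genes by the test favours. The wild type 3 triangle is the wild type point nearest to the mutants in 9 of them, *Pold3* being the exception. Over all tested genes the groups did not overlap for 43.0%, and wild type 3 was the nearest to the mutant mean for 49.8%.

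Of the ORC genes, which encode the complex that marks origins, *Orc4* alone passed the test. Its normalized count was 3337, 3049 and 4047 in the wild type libraries and 4712, 4620 and 4572 in the mutants. All mutant libraries lay above all wild type ones, with wild type 3 the nearest. The mean rose from 3477 ± 514 (SD, n = 3) to 4635 ± 71.4 (SD, n = 3), a log2 fold change of 0.41 (SE 0.09, 95% interval 0.22 to 0.61, edgeR adjusted p = 0.0034). The rise no longer passed without any library other than wild type 3, or with library size as the only scaling. *Orc1*, the largest ATPase subunit, was the lowest of this group, at 756, 770 and 657 in wild type and 607, 716 and 722 in mutant libraries. Its groups overlapped, and the log2 fold change was -0.09 (95% interval -0.36 to 0.17, edgeR adjusted p = 0.61). Of the others, *Orc2* was at 0.28 (edgeR adjusted p = 0.031), *Orc5* and *Orc6* were both at 0.14 and *Orc3* was at 0.0081. Together 5 of 6 ORC genes lay above 0, against 45.7% of all genes, and 1 rose, against 7.32%.

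In helicase loading and its control, 8 of 9 genes were lower in the mutants and *Gmnn* was higher, where 45.7% of all genes were higher. The 6 genes of the MCM ring were lower in the mutants, with log2 fold changes of -0.52 to -0.06 and a median of -0.25. *Mcm6* lost this direction after a correction for gene length, at 0.03, and without wild type 1, at 0.0035. The test was passed by *Mcm2*, *Mcm3* and *Mcm5*, which is 3 of 6 against 7.61% of all genes. *Mcm2* had normalized counts of 5457, 4962 and 3961 in the wild type libraries and 3671, 2791 and 3538 in the mutants. The groups did not overlap, and wild type 3 lay close to mutant 1. Its mean fell from 4793 ± 762 to 3333 ± 474 (SD, n = 3), a log2 fold change of -0.52 (SE 0.11, 95% interval -0.77 to -0.28, edgeR adjusted p = 0.0032). It no longer passed without mutant 2, wild type 1 or wild type 2, with a highest adjusted p of 0.025 by edgeR.

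*Mcm3* stood at 4674, 4794 and 4056 in wild type and at 3790, 3417 and 3640 in mutant libraries, a log2 fold change of -0.32 (SE 0.08, edgeR adjusted p = 0.0079). *Mcm5* stood at 4431, 4455 and 3674 in wild type and at 3410, 3372 and 3289 in mutant libraries, also -0.32 (SE 0.08, edgeR adjusted p = 0.0092). Both had groups without overlap, a wild type 3 that was the lowest of its group, and a mutant mean 0.802 of the wild type mean. Neither passed after the length correction, with RLE normalization or without any library other than wild type 3.

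The other ring subunits did not pass the test. *Mcm7* was at 8070, 8069 and 7228 in wild type and 7376, 6304 and 6884 in mutant libraries, a log2 fold change of -0.18 (95% interval -0.35 to -0.02, edgeR adjusted p = 0.080). *Mcm4* was at 7468, 7347 and 7223 against 6950, 6302 and 7290, a log2 fold change of -0.10 (95% interval -0.25 to 0.05, edgeR adjusted p = 0.30). Mutant 3 lay within the wild type range. *Mcm6*, the most abundant of all 50 genes, had 21103, 18289 and 18743 in wild type and 19239, 17714 and 18721 in mutant libraries, with a log2 fold change of -0.06 (95% interval -0.21 to 0.08, edgeR adjusted p = 0.54). The genes of this ring, whose subunits are present in equal number in the complex, thus had log2 fold changes that ranged from that of *Mcm6* to that of *Mcm2*, and no test of the difference between them was made.

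Of the loaders and their inhibitor, the inhibitor gene alone passed the test. *Gmnn*, which encodes geminin, had 2296, 2383 and 2999 in wild type and 3500, 3890 and 3225 in mutant libraries. All mutants lay above all wild types, though wild type 3 and mutant 3 were close. The mean rose 1.38-fold from 2559 ± 383 to 3538 ± 334 (SD, n = 3), a log2 fold change of 0.47 (SE 0.10, 95% interval 0.25 to 0.68, edgeR adjusted p = 0.0032). It no longer passed without mutant 1, mutant 2, wild type 1 or wild type 2, after the length correction or with library size as the only scaling. *Cdc6* was at 1947, 1632 and 1523 in wild type and 1410, 1492 and 1449 in mutant libraries, without overlap but at an edgeR adjusted p of 0.098 (log2 fold change -0.23). *Cdt1*, the target of geminin, was at 2068, 2159 and 1820 against 2008, 1562 and 1915, with overlap (log2 fold change -0.14, edgeR adjusted p = 0.33).

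No gene of helicase activation passed in the main edgeR fit. Of the 6, 2 were higher at an unadjusted p under 0.05, against 2328 of all 12501 tested genes. DESeq2 passed 1 of the 6 as higher, against 1363 of the 12501. That gene was *Gins1*, a subunit of the GINS complex, at 737, 796 and 973 in wild type and 1029, 1197 and 1206 in mutant libraries. Its groups did not overlap, and the log2 fold change was 0.45 (SE 0.12, 95% interval 0.20 to 0.71, edgeR adjusted p = 0.012). *Gins1* also passed with edgeR under RLE normalization, with no filter on low counts and without wild type 3. The other GINS genes were at 0.16 (*Gins2*), -0.01 (*Gins3*) and 0.13 (*Gins4*), and *Gins3* and *Gins4* changed sign in some alternatives. *Cdc45*, which completes the helicase, was at 1437, 1273 and 1824 in wild type and 1984, 1837 and 1638 in mutant libraries (log2 fold change 0.27, edgeR adjusted p = 0.11). *Mcm10*, which helps the helicase to start, was the lowest of this group at -0.05 (95% interval -0.33 to 0.23), with 1333, 1174 and 988 in wild type and 1184, 931 and 1262 in mutant libraries. Wild type and mutant values overlapped for both.

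Among the polymerase genes *Pold1* and *Pold3* fell, which is 2 of 12 against 7.61% of all genes. Of the 12, 9 lay above 0, against 45.7% of all genes. *Pold1*, the catalytic subunit of polymerase delta, had 1506, 1298 and 911 in the wild type libraries and 722, 662 and 754 in the mutants. Every mutant lay below every wild type, and wild type 3 was nearer to the mutants than to wild type 1. The mean fell from 1238 ± 302 to 713 ± 46.7 (SD, n = 3), to 0.576 of wild type, a log2 fold change of -0.80 (SE 0.15, 95% interval -1.11 to -0.48, edgeR adjusted p = 0.0012). It missed the threshold in 1 of 13 alternatives, without wild type 1 (edgeR adjusted p = 0.011, log2 fold change -0.63). *Pold3*, an accessory subunit of the same enzyme, had 2881, 2800 and 3054 in wild type and 2169, 2094 and 2019 in mutant libraries. Here all wild type libraries, number 3 included, stood together above the mutants. The mean fell from 2911 ± 130 to 2094 ± 75.2 (SD, n = 3), a log2 fold change of -0.48 (SE 0.08, 95% interval -0.64 to -0.31, edgeR adjusted p = 0.00036).

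The remaining subunits of polymerase delta did not fall. *Pold2* was at 3420, 3385 and 3311 in wild type and 4081, 3752 and 3605 in mutant libraries (log2 fold change 0.18, edgeR adjusted p = 0.083), and *Pold4* was at 249, 267 and 258 against 293, 300 and 281 (log2 fold change 0.18, edgeR adjusted p = 0.44). In both genes the mutants were higher without overlap, and *Pold4* turned to -0.08 after the length correction. Primase, which begins each new strand, was at 0.30 for *Prim1* (edgeR adjusted p = 0.014) and 0.35 for *Prim2* (edgeR adjusted p = 0.034). *Prim2* was the highest of the polymerase group, with 1283, 1014 and 1337 in wild type and 1571, 1361 and 1708 in mutant libraries.

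*Pola1*, the catalytic subunit of polymerase alpha and the sole X-linked gene of the set, was at 1383, 943 and 1044 in wild type and 992, 1214 and 1170 in mutant libraries. Its log2 fold change was 0.0024 (95% interval -0.28 to 0.29, edgeR adjusted p = 0.99) in libraries whose sex markers differed between the groups. *Pole*, the catalytic subunit of polymerase epsilon, was at 315, 397 and 379 against 263, 383 and 251, with overlap and a log2 fold change of -0.28 (95% interval -0.68 to 0.11, edgeR adjusted p = 0.28). *Pola2*, *Pole2*, *Pole3* and *Pole4* lay at 0.06, 0.09, 0.21 and 0.09.

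Of the genes of the clamp and its loader, *Pcna* and *Rfc5* rose, which is 2 of 6 against 7.32% of all genes. The log2 fold change was above 0 in 5 of 6, and these 5 were higher without overlap between groups, against 20.8% of all genes. *Pcna*, the sliding clamp, was at 5580, 5168 and 6501 in wild type and 7536, 7574 and 7147 in mutant libraries. The mean rose 1.29-fold from 5750 ± 682 to 7419 ± 236 (SD, n = 3), a log2 fold change of 0.37 (SE 0.08, 95% interval 0.19 to 0.54, edgeR adjusted p = 0.0037). *Rfc5*, a small subunit of the loader, was at 5542, 5080 and 6035 against 6776, 7297 and 7133, a log2 fold change of 0.35 (SE 0.08, 95% interval 0.19 to 0.51, edgeR adjusted p = 0.0031). Both rises were lost without mutant 1, 2 or 3 or wild type 1 or 2 and with library size as the only scaling.

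The other small subunits had the same direction under each scaling and did not pass in the main edgeR fit, whereas *Rfc2* and *Rfc4* passed with DESeq2. Without wild type 3, *Rfc2*, *Rfc3* and *Rfc4* passed with edgeR, and *Rfc4* also did so with no filter on low counts. *Rfc2* was at 6135, 5793 and 6736 in wild type and 7246, 7629 and 7169 in mutant libraries (log2 fold change 0.24, edgeR adjusted p = 0.022). *Rfc3* was at 1867, 1944 and 2217 against 2370, 2603 and 2310 (0.27, edgeR adjusted p = 0.030). *Rfc4* was at 3221, 3113 and 4138 against 4184, 4663 and 4386 (0.34, edgeR adjusted p = 0.017). In *Rfc4* the gap between wild type 3 and mutant 1 was small. The large subunit gene *Rfc1* was the lowest of the group at 3280, 2729 and 2633 against 2773, 2915 and 2740, with overlap and a log2 fold change of -0.04 (95% interval -0.22 to 0.15, edgeR adjusted p = 0.79), which became 0.04 after the length correction.

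Genes of single-strand binding and Okazaki fragment maturation did not pass in the main edgeR fit or with DESeq2. In other edgeR fits *Rpa1* passed as lower with library size as the only scaling, and *Rpa2* and *Rpa3* as higher without wild type 3. At an unadjusted p under 0.05, 2 of 5 were higher and 1 was lower, against 2328 and 2705 of 12501 tested genes. *Rpa1*, the large RPA subunit that binds DNA, was at 4243, 4016 and 4036 in wild type and 3787, 3350 and 3717 in mutant libraries, lower in each mutant (log2 fold change -0.18, edgeR adjusted p = 0.080). *Rpa2* was at 3683, 3774 and 4382 against 4614, 5013 and 4371, with mutant 3 just under wild type 3 (log2 fold change 0.24, edgeR adjusted p = 0.039). The subunits of this trimer thus lay on both sides of 0, with *Rpa3* at 0.22. *Fen1* and *Lig1* were both at -0.09.

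In nucleotide synthesis *Tk1*, the salvage enzyme that phosphorylates thymidine, rose. It had 2527, 2494 and 3128 in the wild type libraries and 4109, 4300 and 3759 in the mutants, with no overlap and with number 3 of each group nearest to the other group. The mean rose 1.49-fold from 2716 ± 357 to 4056 ± 274 (SD, n = 3), a log2 fold change of 0.58 (SE 0.09, 95% interval 0.38 to 0.77, edgeR adjusted p = 0.00033). Over the 13 alternatives it stayed between 0.48 and 0.71. *Ung*, the uracil-DNA glycosylase, was the lowest of this group, at 929, 949 and 874 in wild type and 722, 749 and 622 in mutant libraries. Its groups did not overlap, and the log2 fold change of -0.40 (SE 0.11, 95% interval -0.64 to -0.15) had an edgeR adjusted p of 0.018. Ribonucleotide reductase lay at 0.15 for *Rrm1* (edgeR adjusted p = 0.12) and 0.07 for *Rrm2* (edgeR adjusted p = 0.57). *Tyms* and *Dut* were both at 0.22, with edgeR adjusted p of 0.062 and 0.071, and passed when wild type 3 was left out.

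**Figure D3:**
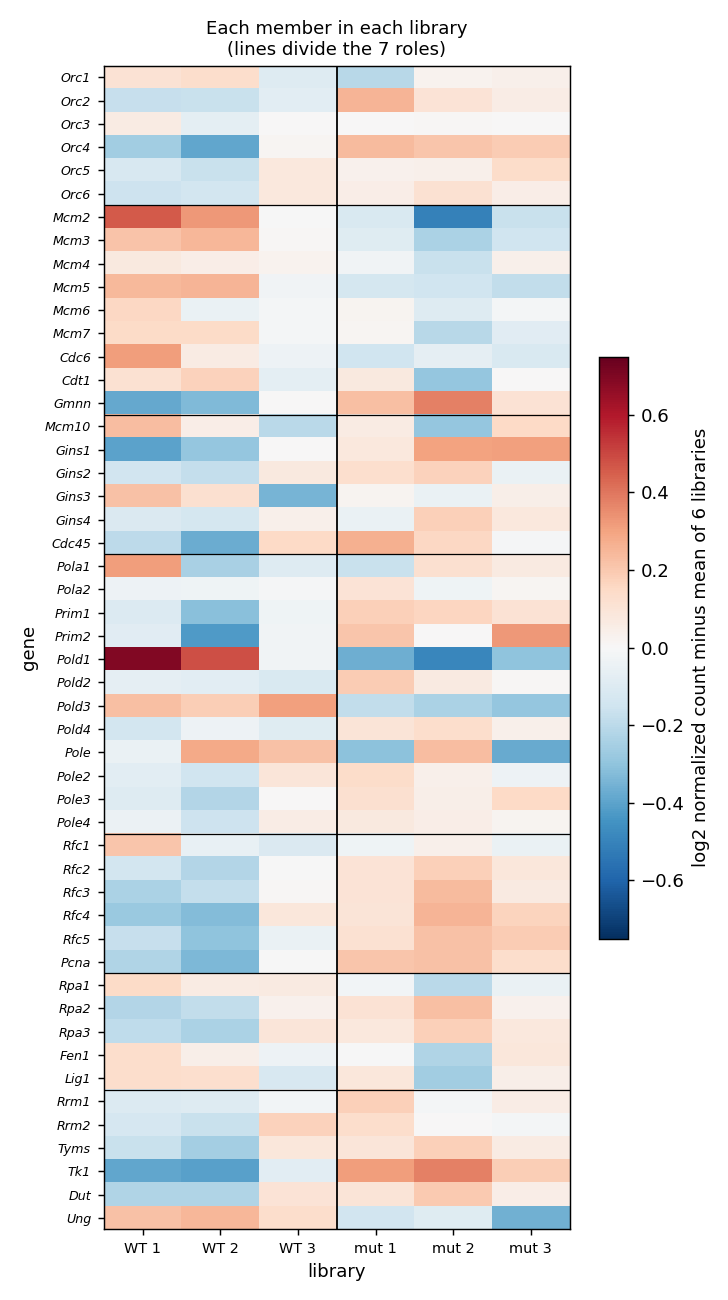
Each of the 50 genes (rows, with lines between the 7 roles) in each of the 6 libraries (columns, wild type left of the line and mutant right), coloured by its log2 normalized count minus the mean over the libraries, red above and blue below. Wild type 1 and 2 carry the strong colours of the wild type side, as in *Pold1* and *Tk1*, and the wild type 3 column is pale.

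Wild type 3 was the wild type library nearest to the mutant mean for 42 of 50 genes (84.0%), against 49.8% of all tested genes. It did not always lie between the other wild type libraries and the mutants. For *Rrm2* it was at 9878, above the mutants at 9590, 8758 and 8669. Wild type 1 was the nearest for 2 and wild type 2 for 6. Leaving out wild type 3 added 10 genes to those that rose, namely *Gins1*, *Cdc45*, *Prim1*, *Rfc2*, *Rfc3*, *Rfc4*, *Rpa2*, *Rpa3*, *Tyms* and *Dut*. Over all tested genes the higher calls by the fuller criteria also went up without wild type 3, from 348 to 516. Wild type 3 was the wild type library nearest to the mutant mean for 29 of the 31 genes that were higher in mutants and for 13 of the 19 that were lower. The median deviation of the 50 genes from their mean over libraries was -0.08, -0.13 and -0.00050 (log2) in the wild type libraries and 0.08, 0.04 and 0.04 in the mutants. Between wild type libraries the coefficient of variation of the 50 genes was 1.20% to 24.4% with a median of 9.49%, and between mutant libraries 0.239% to 24.5% with a median of 6.29%.

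Levels per length, as RPKM, spread 117-fold in wild type. *Mcm6* was the highest at 227 ± 17.7 RPKM (SD, n = 3), next to *Rfc2* at 210 ± 16.1, a gap within the spread of their libraries, and *Rrm2* followed at 158 ± 21.1. *Pole* was the lowest at 1.94 ± 0.230 RPKM. In the MCM ring *Mcm6* was followed by *Mcm4* at 105 ± 1.75, *Mcm7* at 90.2 ± 5.62, *Mcm3* at 77.2 ± 6.79, *Mcm2* at 72.9 ± 11.6 and *Mcm5* at 61.3 ± 6.50 RPKM, of which *Mcm2* overlapped in its libraries with both *Mcm3* and *Mcm5*. In ORC the levels went from 104 ± 9.70 RPKM for *Orc6* to 7.98 ± 0.677 for *Orc1*. The catalytic polymerase genes had the lowest 3 means of the polymerase group, with *Pold1* at 13.1 ± 3.18, *Pola1* at 6.53 ± 1.34 and *Pole* below them. *Pold1* did not differ from the accessory subunit gene *Pold4*, at 14.5 ± 0.510, beyond the spread of its libraries, whereas *Pold2* was at 91.1 ± 1.5 RPKM. The 3 catalytic genes also have long total exon lengths, with 4860, 8813 and 9590 bases, and the part of length in their levels was not tested.

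**Figure D4:**
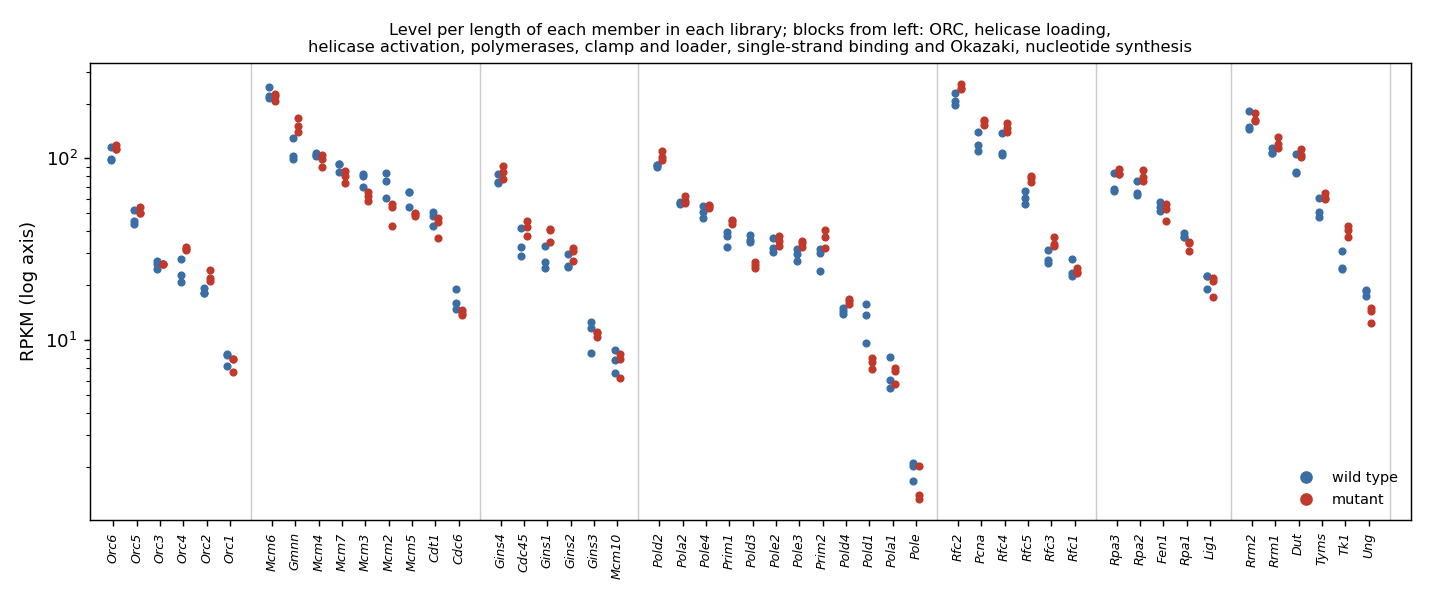
RPKM (y axis, log scale) of each of the 50 genes (x axis) in each wild type (blue) and mutant (red) library, ordered by level within each of the 7 roles. *Mcm6* and *Rfc2* are at the top near 227 and 210 RPKM in wild type, *Pole* is far below the rest at 1.94, and the steps between genes are mostly wider than the steps between groups.

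Gene length moved with the log2 fold changes. Across genes, which are not independent replicates, the Spearman correlation of exon length with log2 fold change was -0.34 over the 50 genes and -0.21 over 12310 tested genes with a length. The median exon length was 4669 bases for the 5 genes that rose, 3498 for the 5 that fell and 2848.5 for the 40 that did not pass. Exon length here pools all annotated exons of a gene, so it can exceed the length of the transcripts present, which was not measured. After a correction for length 6 genes rose and 3 fell, with *Mcm3*, *Mcm5* and *Gmnn* no longer passing and *Orc2* and *Prim1* passing as higher. *Tk1*, *Pold1*, *Mcm2* and *Pold3* still passed.

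The counts of a few genes can include reads of others or miss reads of their own. Per the methods of the study, only uniquely mapped reads were counted, so reads that fit a copy equally well are not in the counts. In mm9, the build of the count files, *Tk1* (ENSMUSG00000025574) lies on the minus strand at chr11:117676840-117687406, *Pold1* (ENSMUSG00000038644) on the minus strand at chr7:51788116-51804219 and *Mcm2* (ENSMUSG00000002870) on the minus strand at chr6:88833469-88848774. Values printed here are sums over the exons of a gene. For 4 of the 50 genes a near-identical copy lay elsewhere in the genome, over 83.0% of the transcript for *Tk1* (chromosome 8, 96.0% identity), 82.8% for *Pcna* (chromosome 19, 99.3%), 80.2% for *Mcm7* (chromosome 16, 97.5%) and 56.2% for *Cdc6* (chromosome X, 95.6%). Whether reads were counted by strand was not given in the sources used here. Exons of genes that run the other way covered 84.2% of *Fen1*, 67.3% of *Gins2*, 12.6% of *Rfc4*, 12.03% of *Orc2*, 10.7% of *Rfc5*, 9.28% of *Cdc45*, 8.70% of *Mcm7*, 8.04% of *Orc1*, 7.80% of *Orc4* and smaller parts of others, and these values are uncertain to that extent. On the same strand, exons of other genes covered 12.5% of *Orc5* and 3.89% of *Mcm7*.

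Other genes of the same processes were taken from lists. Of 35 accessory replication factors, 4 rose and none fell by edgeR, against 7.32% and 7.61% of all genes, with a median log2 fold change of -0.04. At an unadjusted p under 0.05, 6 were lower, and DESeq2 passed 0 in that direction, against 2705 and 1110 of 12501 tested genes. *Asf1b*, a histone chaperone, had 2119, 2115 and 2672 in wild type and 3320, 3565 and 3242 in mutant libraries, a log2 fold change of 0.55 (edgeR adjusted p = 0.00054). *Dbf4*, the regulatory subunit of the kinase that fires origins, had 2492, 2403 and 2432 against 3362, 3466 and 3629, with wild type 3 beside its group (0.51, edgeR adjusted p = 0.00012). *Cdc7*, which encodes the kinase itself, was at -0.26 (edgeR adjusted p = 0.071), and is named because it is the partner of *Dbf4*. *Rnaseh2b*, a subunit of ribonuclease H2, was at 0.44 (edgeR adjusted p = 0.0022) and *Tipin*, a fork protection factor, at 0.32 (edgeR adjusted p = 0.0087). Leaving out wild type 3 gave 7 that rose and 2 that fell, leaving out wild type 2 gave 3 that rose, and leaving out any other library gave 2.

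Of 32 further genes of nucleotide metabolism, 6 rose and 1 fell, against 7.32% and 7.61% of all genes, with a median of 0.11. *Mthfd2*, a mitochondrial folate enzyme, had 547, 544 and 738 in wild type and 923, 969 and 908 in mutant libraries, a log2 fold change of 0.61 (edgeR adjusted p = 0.0030). *Nme1* and *Nme2*, nucleoside diphosphate kinases, were at 0.34 and 0.31 (edgeR adjusted p = 0.0025 and 0.0086). *Impdh1*, which makes the precursor of guanine nucleotides, was at 1959, 1789 and 1468 against 1344, 1085 and 1367 and fell by 0.46 on the log2 scale (edgeR adjusted p = 0.0090). Without wild type 3, 13 rose and 2 fell, without mutant 3, 2 rose, and without any other library 0 rose, while 0 fell without any library other than wild type 3. With the replicate number as a block 2 rose and 0 fell.

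Of 19 genes of the E2F and RB families and their partners none rose by edgeR, against 7.32% of all genes. None was higher at an unadjusted p under 0.05 or by DESeq2, against 2328 and 1363 of 12501 tested genes. In the other direction 3 were lower at an unadjusted p under 0.05 and DESeq2 passed 1, against 2705 and 1110 of 12501. *Foxm1*, a transcription factor of G2 and M phase genes, was the 1 that fell, from 510, 502 and 467 in wild type to 319, 278 and 358 in mutant libraries (log2 fold change -0.63, edgeR adjusted p = 0.0057), and it no longer passed after the length correction or without mutant 1, mutant 2, wild type 1 or wild type 2, which left 0. The median of this list was -0.03.

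Of 46 genes of mitosis 31 rose and none fell by edgeR, against 7.32% and 7.61% of all genes, with a median of 0.44. None was lower at an unadjusted p under 0.05 or by DESeq2, against 2705 and 1110 of 12501 tested genes. This list is known from earlier results of these data, and its difference from the replication genes was not tested. *Spc24*, a kinetochore protein, had 1844, 1810 and 2146 in wild type and 3416, 3385 and 3569 in mutant libraries (log2 fold change 0.84, edgeR adjusted p = 3.2e-06). *Aurka*, the Aurora A kinase, and *Ube2c*, which helps to degrade cyclins, were at 0.77 and 0.75 (edgeR adjusted p = 6.2e-05 and 6.5e-05). Wild type 3 was the wild type library nearest to the mutants for 34 of these 46 genes, or 73.9%.

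**Figure D5:**
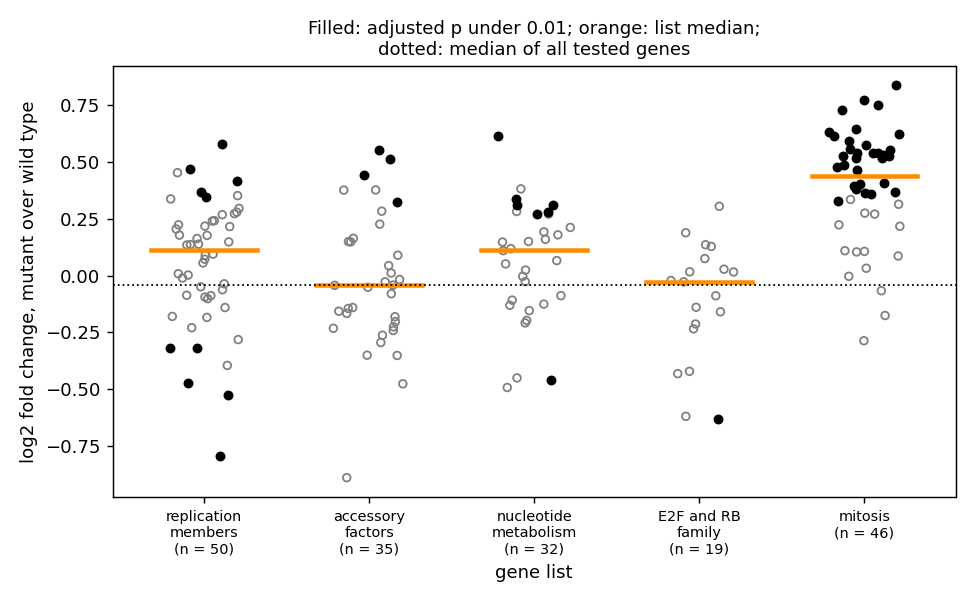
Log2 fold change of mutant over wild type (y axis) of each tested gene in the replication set and 4 related lists (x axis), with filled points at an adjusted p under 0.01, an orange line at each median and a dotted line at the median of all tested genes. The replication set spreads to both sides of 0 around a median of 0.11, and the mitotic list lies mostly above 0 around 0.44.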

How the data were processed

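Libraries of E13.5 small intestine epithelium, 3 mutant and 3 wild type, were grouped by their labels. Per the labels and the methods of the study, the authors made cDNA with a SMARTer v4 kit, mapped reads to mm9 with STAR 2.5.2b, counted them per gene with featureCounts 1.5.1 and deposited raw counts, not normalized. Reads have no molecular identifiers, and the strand setting was not given in the sources used here. The counts went into edgeR 4.0.16 under R 4.3.3 (TMM, filterByExpr, quasi-likelihood test on genotype, Benjamini-Hochberg adjustment over 12501 genes), after trials on simulated data. The common dispersion was 0.0209. Totals of 18216537 to 20397278 gave the replication genes a mean normalized count of 274.5 or more. Alternatives were DESeq2 1.42.0, RLE, library size, other filters and criteria, a length correction by loess with a span of 0.5, the replicate number as a block, and leaving out each library.

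The genes and lists were chosen with earlier results of these data known. Values per library are given for called genes, the highest and lowest of each role, the highest and lowest RPKM and X-linked genes. Those of other genes that passed, or that share a complex with them, were added after their values were seen. From each related list at most 3 genes that passed in each direction are given, and *Tipin* and *Cdc7* were added after their values were seen. RPKM and the length correction used total exon length in an Ensembl-based annotation of mm9, and 98.5% of tested genes had a length. This length pools the exons of all annotated transcripts of a gene, so RPKM can be too low by an amount that differs between genes. BLAST 2.17.0 was used to look for near-identical copies, taken as 95% identity or more over 50% or more of a transcript. Promoters were read from a RefSeq table. Figures were drawn with matplotlib 3.10.9 in Python 3.11.15. 1 gene was matched through an older symbol.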

Additional observations from a re-analysis of the deposited data

How the results depend on the processing

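The counts of the mitotic list that rose (31) stayed within 1.5 times in each alternative, at 23 to 35, while 0 mitotic genes fell and 0 E2F and RB genes rose in each of them. *Tk1* and *Pold3* passed in 13 of 13 alternatives, *Pold1* in 12, *Mcm2* in 10, *Orc4*, *Gmnn*, *Rfc5* and *Pcna* in 7, and *Mcm3* and *Mcm5* in 5. With 3 libraries a group the standard errors of the replication genes were 0.07 to 0.19 on the log2 scale, which limits the changes that could be detected. The cause of the changes below was not tested.

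The 5 replication genes that rose were 9 with DESeq2, which passed 1363 of 12501 tested genes as higher. They were 1 when scaled by library size alone, 8 with no filter on low counts, 13 at an adjusted p under 0.05 and 1 to 15 when a library was left out. The 5 that fell were 3 with RLE, 3 after the length correction, 3 with the replicate block and 1 to 5 when a library was left out. The 1 called higher became 0 with library size, 5 with no minimum log2 fold change, 0 at a minimum of 1, 0 at an RPKM of at least 50 and 1 to 4 when a library was left out. The 2 called lower became 4, 5, 0 and 1 under the same settings, 1 after the length correction and 0 to 3 when a library was left out. The higher call lost at an RPKM of at least 50 was *Tk1*, at 26.8 in wild type and 40.0 in mutant. These values divide by its total exon length of 5198 bases, and a shorter length would give higher values. The median of 0.11 became 0.010 with library size, 0.053 after the length correction and 0.070 to 0.18 when a library was left out. By library size the calls over all genes were 17.3% higher in place of 32.3%. Accessory factors that rose (4) were 7 at an adjusted p under 0.05 and 2 to 7 when a library was left out, and those that fell (0) were 2 with library size, 3 at an adjusted p under 0.05 and 0 to 2. Nucleotide metabolism genes that rose (6) were 10 with DESeq2, 2 with library size, 2 with the replicate block, 10 at an adjusted p under 0.05 and 0 to 13 when a library was left out, and those that fell (1) were 0 with RLE, 2 with library size, 0 after the length correction, 0 with the block, 2 at an adjusted p under 0.05 and 0 to 2. E2F and RB genes that fell (1) were 0 after the length correction, 2 at an adjusted p under 0.05 and 0 to 1 when a library was left out.

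The replicate numbers did not pair the libraries. The correlation of deviations was 0.0097, -0.045 and -0.018 for the 3 pairs, and 1 of 6 libraries correlated best with its own number. With the replicate block *Mcm3* and *Mcm5* no longer passed.

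Log2 fold changes near 0 changed sign as follows. After the length correction *Mcm6* was at 0.033, *Mcm10* at 0.022, *Orc1* at 0.0017, *Gins4* at -0.037, *Pold4* at -0.079, *Pole2* at -0.026, *Rfc1* at 0.035 and *Lig1* at 0.0040. With library size *Orc3* was at -0.097, *Pola1* at -0.10, *Pola2* at -0.050, *Pole2* at -0.014, *Pole4* at -0.0099 and *Rrm2* at -0.031. With a minimum mean of 50 counts *Orc3* was at -0.0060 and *Pola1* at -0.012. *Gins3* was at 0.013 with DESeq2, 0.012 with RLE and 0.0066 with the replicate block. When a library was left out the ranges were -0.10 to 0.0035 for *Mcm6*, -0.14 to 0.071 for *Mcm10*, -0.026 to 0.040 for *Orc3*, -0.15 to 0.10 for *Gins3*, -0.11 to 0.18 for *Pola1*, -0.082 to 0.068 for *Rfc1* and -0.15 to 0.014 for *Lig1*.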
